A study of Mus musculus with 2 samples.

Results

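Muscle carries its own forms of several enzymes of energy supply, beside paralogues that most tissues use. Described here are 10 genes in 5 such pairs, out of 43346 mouse genes measured. In each pair the muscle gene comes first: Ckm and Ckb (creatine kinase), Eno3 and Eno1 (enolase), Pgam2 and Pgam1 (phosphoglycerate mutase), Cox6a2 and Cox6a1 (a cytochrome c oxidase subunit), Pygm and Pygl (glycogen phosphorylase). The genes were selected on what their proteins do and on measured values, since their levels and their difference between the libraries were known from earlier results of these data when they were chosen by symbol. All levels and differences of the 10 genes below are therefore descriptions, with no test.

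The data are total RNA sequencing of mouse embryonic limb, in 1 group of 2 libraries. The embryos were healthy, of strain B6NCrl, 15.5 days old, with males and females pooled. Replicate 1 is a pool of limbs from 78 embryos and replicate 2 a separate pool from 62 embryos, and both carry the same donor label. Each library was made from 10 ng of RNA longer than 200 nt, extracted with Ambion mirVana, with spike-ins added. The labels name neither fore- nor hindlimb, and a pool hides the differences between its embryos. With 1 group there is no comparison between conditions. The difference between the pools sets 1 library against 1, so the variation it should be measured against cannot be estimated. For a ratio within a library, a two-sided sign test over 2 libraries cannot give a p below 0.5. No p-value is therefore given for the genes. The depth was 35104685 estimated counts for replicate 1 and 41757268 for replicate 2, and spike-ins took 2.28% and 2.26% of them.

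As background, creatine kinase moves phosphate between ATP and phosphocreatine, the store that a contracting fibre draws on first. Glycogen phosphorylase releases glucose phosphate from glycogen, phosphoglycerate mutase and enolase carry out consecutive late steps of glycolysis, and cytochrome c oxidase is the last complex of the respiratory chain, with Cox6a as one of its small nuclear-encoded subunits. Developing muscle is known to switch from non-muscle forms of such enzymes towards the muscle forms as fibres mature, while cartilage, skin, blood and connective tissue keep non-muscle forms. For glycogen phosphorylase these include Pygb, described below, and not only the paired Pygl. In whole limb, RNA of a muscle form may come mainly from fibres and RNA of a general form from all cells, but the source of the RNA was not tested here. In such bulk tissue, fewer muscle cells and less RNA per muscle cell cannot be told apart.

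The stretches just before the transcription start are shown for the creatine kinase pair and for the 3 other muscle genes with a RefSeq entry, because these muscle genes all differed between the pools and because Ckm and Ckb differ in the motifs found there. Each reads 5′ to 3′ on the gene's own strand, from RefSeq promoters on GRCm38.p6, and ends before the first annotated exon base within the 250 bases upstream of the start. Capitals mark the E-box letters CANNTG, bound by the MyoD family of muscle regulators and by many other factors, and the MEF2 motif, each searched on both strands. The Ckm stretch is chr7:19410844-19411024 on the plus strand, between exons of another annotated Ckm transcript that starts further upstream. It stops after 181 of the 250 bases, so the bases nearest the Ckm start are not printed. That of Ckb is chr12:111672339-111672588 on the minus strand, that of Eno3 chr11:70656926-70657175 on the plus strand, that of Pgam2 chr11:5803797-5804046 on the minus strand, and that of Pygm chr19:6384158-6384398 on the plus strand.
Ckm: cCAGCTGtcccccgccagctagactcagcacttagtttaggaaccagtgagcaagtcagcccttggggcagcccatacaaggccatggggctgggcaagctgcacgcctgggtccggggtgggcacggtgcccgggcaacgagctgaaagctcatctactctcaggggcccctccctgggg
Ckb: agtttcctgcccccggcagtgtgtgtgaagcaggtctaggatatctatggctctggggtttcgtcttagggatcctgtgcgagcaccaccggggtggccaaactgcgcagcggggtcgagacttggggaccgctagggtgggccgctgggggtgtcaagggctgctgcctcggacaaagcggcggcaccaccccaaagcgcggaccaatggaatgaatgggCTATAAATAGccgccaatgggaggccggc
Eno3: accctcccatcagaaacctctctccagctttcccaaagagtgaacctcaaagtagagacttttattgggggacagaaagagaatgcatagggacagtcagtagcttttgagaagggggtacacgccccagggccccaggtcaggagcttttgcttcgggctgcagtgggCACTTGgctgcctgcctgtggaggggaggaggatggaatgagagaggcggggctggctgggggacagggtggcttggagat
Pgam2: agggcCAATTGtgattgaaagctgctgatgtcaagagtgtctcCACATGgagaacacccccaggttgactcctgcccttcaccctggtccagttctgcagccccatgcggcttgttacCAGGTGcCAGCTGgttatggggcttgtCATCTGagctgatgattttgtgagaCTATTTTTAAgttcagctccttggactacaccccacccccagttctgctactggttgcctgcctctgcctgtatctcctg
Pygm: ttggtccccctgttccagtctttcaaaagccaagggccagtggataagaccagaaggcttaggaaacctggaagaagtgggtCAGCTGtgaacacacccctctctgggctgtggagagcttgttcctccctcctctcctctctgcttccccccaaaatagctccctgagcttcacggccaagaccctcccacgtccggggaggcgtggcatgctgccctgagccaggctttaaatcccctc

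Over the full 250 bases, Ckm held 1 E-box, beginning 249 bases before the start, and Eno3 held 1, beginning 81 bases before it. Pgam2 held 5 E-boxes, beginning 245, 207, 132, 125 and 105 bases before the start, and a MEF2 match beginning 80 bases before it. Pygm held 2, beginning 168 and 8 bases before the start, and the nearer one lies in the annotated first exon that is not printed. Of the general genes, Ckb, Pgam1, Cox6a1 and Pygl held no E-box, while the first of the 3 listed Eno1 starts had 2 and the other two had none. Ckb held a MEF2 match 29 bases before its start, at CTATAAATAG, which also holds the letters TATAAA of a TATA box. The Ckm window holds the similar letters TATATAA in its part near the start that is not printed. An E-box occurs in 66.2% of all 32851 promoter windows of this length and 3 or more in 12.2%, and the MEF2 motif in 2.92%. A match is a description of letters and not a shown binding site, and no match says only that these letters are not in this window. Windows were matched by symbol for 9 of the 10 genes, all but Cox6a2.

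Creatine kinase had the largest swing. Ckm, the cytosolic enzyme of muscle (ENSMUSG00000030399.1, chr7:19404776-19422841, plus strand), stood at 529 TPM in replicate 1 (15529 estimated counts) and at 88.0 TPM in replicate 2 (3158 counts). TPM is reads per length of transcript, scaled to 1 common total, so that levels of different genes can be compared. Ckb, the cytosolic brain-type enzyme of most other tissues (ENSMUSG00000001270.8, chr12:111669361-111672338, minus strand), had 151 and 106 TPM on 4646 and 3991 counts. Ckm was thus the higher of the pair in replicate 1 and the lower in replicate 2. Ckm was 3.50-fold the level of Ckb within replicate 1 and 0.829-fold within replicate 2. As log2 ratios, with 0.1 TPM added to each level, these were 1.81 and −0.27, a mean of 0.77 ± 1.47 (SD, n = 2), so that its spread between pools is wider than its distance from equality.

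Enolase showed a fixed order with a moving margin. Eno3, the muscle beta-enolase (ENSMUSG00000060600.11, chr11:70657202-70662513, plus strand), stood at 213 TPM in replicate 1 (6405 counts) and at 58.7 TPM in replicate 2 (2137 counts). Eno1, the alpha-enolase of most cells (ENSMUSG00000063524.9, chr4:150236721-150248879, plus strand), had 1504 and 1324 TPM on 59886 and 66407 counts. Eno1 was the highest of the 10 genes in both libraries, ranking 52 and 70 among all genes, and was above Eno3 in both. Its level was 7.07-fold that of Eno3 in replicate 1 and 22.5-fold in replicate 2, with a mean log2 ratio of Eno3 to Eno1 of −3.66 ± 1.18 (SD, n = 2).

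Phosphoglycerate mutase, the step before enolase, followed the same form. Pgam2, the muscle enzyme (ENSMUSG00000020475.3, chr11:5801640-5803733, minus strand), stood at 183 TPM in replicate 1 (3032 counts) and at 56.5 TPM in replicate 2 (1142 counts). Pgam1, the enzyme of most tissues (ENSMUSG00000011752.6, chr19:41911923-41918660, plus strand), had 537 and 526 TPM on 20737 and 24834 counts. Pgam1 was 2.93-fold above Pgam2 in replicate 1 and 9.29-fold in replicate 2, while its own level hardly moved. The mean log2 ratio of Pgam2 to Pgam1 was −2.38 ± 1.18 (SD, n = 2).

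The respiratory chain pair had the same order. Cox6a2, the heart and skeletal muscle subunit (ENSMUSG00000030785.7, chr7:128205435-128206387, minus strand), stood at 116 TPM in replicate 1 (1449 counts) and at 33.3 TPM in replicate 2 (508 counts). Cox6a1, the subunit of other tissues (ENSMUSG00000041697.8, chr5:115345642-115348981, minus strand), had 693 and 658 TPM on 7304 and 8476 counts. Cox6a1 was therefore 5.96-fold above Cox6a2 in replicate 1 and 19.7-fold in replicate 2. The mean log2 ratio of Cox6a2 to Cox6a1 was −3.44 ± 1.22 (SD, n = 2).

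Glycogen phosphorylase resembled creatine kinase in that the order of its pair depended on the pool. Pygm, the muscle enzyme, whose loss causes McArdle disease (ENSMUSG00000032648.10, chr19:6384399-6398459, plus strand), stood at 75.0 TPM in replicate 1 (3855 counts) and at 19.2 TPM in replicate 2 (1201 counts). Pygl, the liver-type enzyme (ENSMUSG00000021069.12, chr12:70190811-70231488, minus strand), had 30.0 and 29.9 TPM on 1815 and 2154 counts. Pygm was 2.49-fold the level of Pygl in replicate 1 and 0.645-fold in replicate 2. The mean log2 ratio of 0.34 ± 1.38 (SD, n = 2) is again smaller than its spread.

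**Figure D1:**
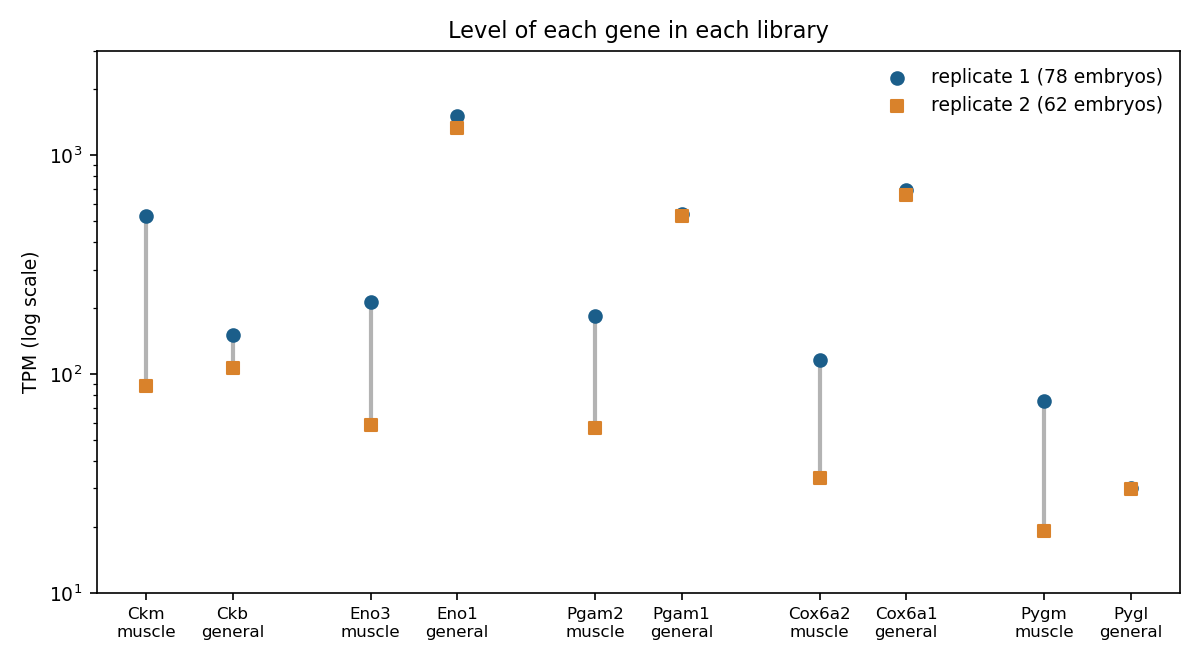
TPM (log axis) of the 10 genes in replicate 1 (circles) and replicate 2 (squares), each muscle gene left of its general paralogue, with a grey line joining the 2 libraries of a gene. The muscle genes have long lines and the general genes short ones: Ckm runs from 88.0 to 529 TPM and Pgam1 from 526 to 537 TPM.

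Ordered by mean TPM, the 10 genes were Eno1 (1414 ± 127, SD, n = 2), Cox6a1 (676 ± 24.8), Pgam1 (531 ± 7.60), Ckm (308 ± 312), Eno3 (136 ± 109), Ckb (129 ± 31.7), Pgam2 (120 ± 89.7), Cox6a2 (74.8 ± 58.6), Pygm (47.1 ± 39.5) and Pygl (30.0 ± 0.120). Of the 9 neighbouring pairs in this order, 2 were separate in the sense that the lower value of the higher gene lay above both values of the other: Eno1 over Cox6a1 and Cox6a1 over Pgam1. The ranges of the other 7 overlapped. Yet within each kind the order was the same in both libraries, with Ckm above Eno3, Pgam2, Cox6a2 and Pygm in turn, and Eno1 above Cox6a1, Pgam1, Ckb and Pygl. The pools thus differed in where the muscle genes stood as a block against the general ones. Ckm, for example, ranked 256 among all genes in replicate 1 and 1892 in replicate 2, and Pygm ranked 2354 and 6933, while Pgam1 ranked 251 and 264.

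All 5 muscle genes were more than 2-fold higher in replicate 1, and none of the 5 general genes was. Among the 15571 genes with a mean of at least 1 TPM, 2.55% were over 2-fold higher in replicate 1 and 1.12% in replicate 2; because the genes were picked with this difference known, nothing is read from that contrast. As log2 of replicate 1 over replicate 2, with 0.1 TPM added, the difference was 2.59 for Ckm (6.0-fold), 1.96 for Pygm (3.89-fold), 1.86 for Eno3 (3.62-fold), 1.80 for Cox6a2 (3.48-fold) and 1.70 for Pgam2 (3.24-fold). For the general genes it was 0.51 for Ckb (1.42-fold), 0.18 for Eno1 (1.14-fold), 0.07 for Cox6a1, 0.03 for Pgam1 and 0.01 for Pygl. The median was 1.86 over the muscle genes and 0.07 over the general genes, beside 0.02 over all genes tested, 54.8% of which were higher in replicate 1. The sign for Pygl turned when values were centred on the median gene, and the signs for Pygl and Pgam1 when scaled by the spike-ins. The SD of the log2 difference over all genes tested was 0.57. The differences of all 5 general genes lay inside it. This SD covers genes of every level from a mean of 1 TPM and does not measure the noise between pools for a single gene. With 1 library a pool, none of the 5 is given a direction. The Ckb difference stayed between 0.46 and 0.51 under every scaling and pseudocount tried.

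The authors' deposited interval of each level covers counting and the assignment of reads, not the difference between pools. For Ckm it ran from 507 to 524 TPM in replicate 1 and from 83.2 to 89.2 TPM in replicate 2. For Pygm it ran from 69.2 to 78.3 and from 17.0 to 21.2 TPM. Intervals of the 2 libraries overlapped for Pgam1 and Pygl and for no other of the 10 genes. The interval belongs to a second deposited estimate, the posterior mean, and 6 of the 20 TPM values lay outside it. The gap between pools in the muscle genes is thus far wider than the deposited counting error.

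Summed over the pairs, the 5 muscle genes came to 1116 TPM for replicate 1 and 256 TPM for replicate 2, a 4.36-fold difference. The 5 general genes summed to 2915 and 2644 TPM, a 1.10-fold difference. Muscle forms made up 27.7% of the TPM of the 10 genes in replicate 1 and 8.82% in replicate 2. The log2 ratio of muscle to general form was higher in replicate 1 by 2.08 for creatine kinase, 1.95 for glycogen phosphorylase, 1.72 for Cox6a, 1.67 for enolase and 1.67 for phosphoglycerate mutase. So 3 of the 5 pairs had the general form on top in both pools, and 2 changed order.

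Other members of the families give the scale of these shares. Of all creatine kinase TPM, which was 726 in replicate 1 and 229 in replicate 2, Ckm made up 72.8% and 38.4%, and Ckb 20.8% and 46.3%. The mitochondrial creatine kinases took the rest: Ckmt1, the ubiquitous form, had 4.64% and 14.4%, and Ckmt2, the sarcomeric form, 1.75% and 0.890%. Family TPM in replicate 1 was thus mostly Ckm, and in replicate 2 Ckb had the largest share. Enolase was mainly Eno1 (87.3% and 95.2%), with Eno3 at 12.3% and 4.22% and the neuronal Eno2 at 0.383% and 0.539%. Pgam2 had 25.5% and 9.71% of phosphoglycerate mutase, and Cox6a2 14.4% and 4.82% of Cox6a.

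Glycogen phosphorylase has another form, Pygb, the brain-type enzyme, and it took a larger share than Pygl in both libraries. Pygb had 78.4 and 84.1 TPM, which is 42.7% and 63.1% of the family. Pygm had 40.9% and 14.4%, and Pygl 16.4% and 22.4%. In replicate 1 Pygb and Pygm were near each other, and in replicate 2 Pygb stood well above both. Of the non-muscle forms, the brain-type gene and not the liver-type gene had the larger share.

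**Figure D2:**
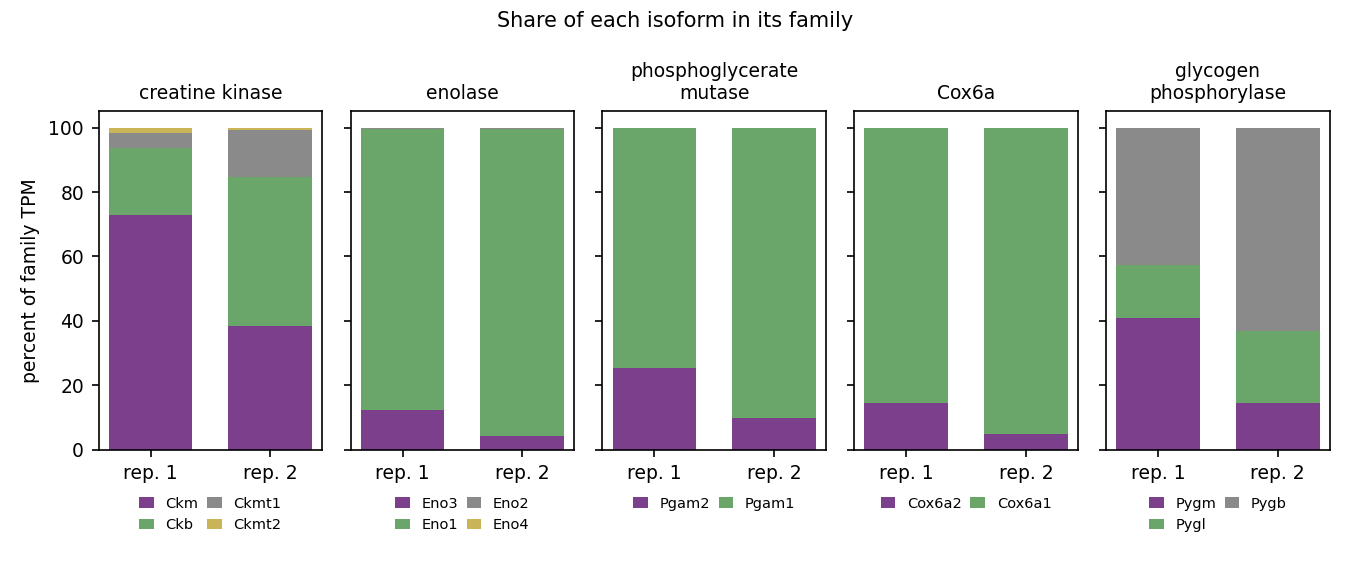
Percent of the family's summed TPM (vertical axis, from 0) held by each gene, in replicate 1 and replicate 2, for the 5 families. Ckm holds 72.8% and 38.4% of creatine kinase, while Eno1 fills 87.3% and 95.2% of enolase and Pygb 42.7% and 63.1% of glycogen phosphorylase.

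Further pairs of muscle and general forms in energy supply showed which of them resembled the 5 pairs. Of 11 listed pairs, 10 had more than 3 counts for both genes in each library and are compared. The log2 ratio was higher in replicate 1 in 9 of the 10 and by more than 2-fold in 5, with a median of 1.21 beside 1.72 for the 5 pairs above. Of single genes tested, 54.8% were higher in replicate 1 and 2.55% by more than 2-fold, and no such share was computed for pairs. The 9 include Slc25a4 and Cox4i2, whose ratios moved by only 0.18 and 0.08. The 5 include Phkg1, with a mean below 1 TPM, and Cox7a1, on few counts. The list was made with results of these data known and is no independent evidence of direction. Ckmt2 had 12.7 and 2.04 TPM (394 and 77 counts) and Ckmt1 33.7 and 33.1 TPM, which moved the log2 ratio by 2.56. Ckmt2 alone was higher in replicate 1 by 2.58 on the log2 scale, beside 2.59 for Ckm, though it rests on 77 counts in replicate 2 and shifts slightly with the 0.1 TPM added. Ampd1, the muscle AMP deaminase, had 17.0 and 4.87 TPM against 52.0 and 52.7 TPM for Ampd2, a shift of 1.80.

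Among respiratory chain subunits, the heart and muscle forms Cox8b and Cox7a1 stood far below their general paralogues, further than Cox6a2 did. Cox8b had 49.1 and 16.0 TPM against 582 and 562 TPM for Cox8a, a shift of 1.56. Cox7a1 had 9.30 and 3.05 TPM, on only 55 and 22 counts, against 328 and 330 TPM for Cox7a2, a shift of 1.59. Cox4i2, best known from lung, had 30.6 and 27.9 TPM against 771 and 744 TPM for Cox4i1, and its ratio moved by 0.08. Thus the 3 subunits with a heart and muscle form moved, and the one whose second form belongs to lung did not pass 2-fold.

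The remaining pairs were mixed. Phkg1, the muscle catalytic subunit of phosphorylase kinase, had 1.15 and 0.17 TPM on 42.5 and 10.1 counts, against 31.1 and 29.1 TPM for Phkg2, a shift of 2.11. Phka1, the muscle regulatory subunit of the same kinase, had 7.08 and 7.64 TPM against 15.4 and 13.7 TPM for Phka2, a shift of −0.28 and the only one towards replicate 2. Phka1 alone differed by −0.11 between the pools, inside the SD of 0.57 over all genes tested. With 1 library a pool, it is given no direction. Phkg1 rests on few counts, and at so low a level its difference depends on the 0.1 TPM added. Pfkm, muscle phosphofructokinase, had 64.4 and 38.7 TPM against 129 and 130 TPM for Pfkl, a shift of 0.75. Slc25a4, the ADP/ATP carrier of heart and muscle, had 455 and 379 TPM against 442 and 418 TPM for Slc25a5, a shift of 0.18. Neither of these pairs passed a 2-fold shift. Fbp2, muscle fructose bisphosphatase, had 4.42 and 2.24 TPM against 1.26 and 1.19 TPM for Fbp1 (33 and 37 counts), a shift of 0.87. For glycogen synthase, the muscle form Gys1 had 36.8 and 32.1 TPM, and the liver form Gys2 had 0 and 1 counts, so no ratio is given.

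**Figure D3:**
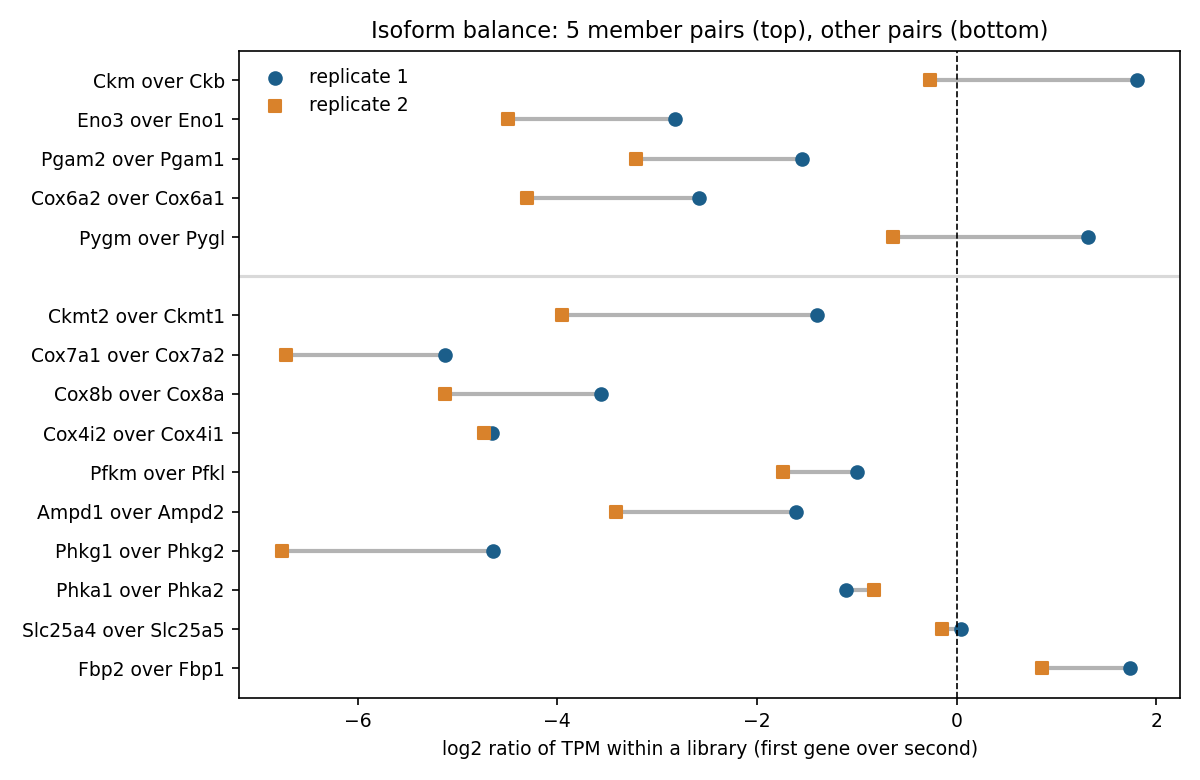
Log2 ratio of TPM of the first to the second gene of each pair within replicate 1 (circles) and replicate 2 (squares), with the 5 pairs described above the grey line and the 10 further pairs below it; the dashed line marks equal levels. Of the upper 5, Ckm over Ckb and Pygm over Pygl cross the dashed line (1.81 to −0.27 and 1.32 to −0.63), and Phka1 over Phka2 alone has its circle to the left of its square.

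In the pathways that these enzymes serve, 7 of 51 other genes with a mean of at least 1 TPM (13.7%) were over 2-fold higher in replicate 1, beside 2.55% of all genes tested, in 4 lists made with earlier results known. Of 12 other genes of phosphate transfer, 10 were higher in replicate 1, beside 54.8% of all genes tested, and 5 by more than 2-fold. Their median log2 difference was 0.21, beside 0.02 over all genes. Slc25a5 and Slc25a4 were the highest of them. Besides Ckmt2 and Ampd1, the 5 held Ak1, a cytosolic adenylate kinase (111 and 38.6 TPM), Gatm, which makes the precursor of creatine (76.6 and 33.1 TPM), and Gamt, which makes creatine (108 and 53.1 TPM), all 3 named after their values were seen. RNA of Gatm and Gamt was thus higher in the pool with more creatine kinase RNA, and a link between them was not tested. The creatine transporter Slc6a8, also named after its values were seen, had 6.10 and 6.83 TPM.

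Over all genes tested, 54.8% were higher in replicate 1, 2.55% by more than 2-fold, and 1.12% were over 2-fold higher in replicate 2. Of 17 other genes listed for glycolysis, 14 were higher in replicate 1 and none by more than 2-fold in either direction (median log2 0.13). Ldha, lactate dehydrogenase A, had 1731 and 1584 TPM, and Gapdh had 1457 and 1266 TPM. The largest differences were those of Fbp2 (log2 0.95), listed here though it acts in the reverse pathway, and Pfkm (0.73). Of 12 other glycogen genes, 10 had a mean of at least 1 TPM, 7 of these were higher in replicate 1 and none passed 2-fold (median 0.14). The highest were Ugp2, which makes UDP-glucose (102 and 83.1 TPM), and Pygb. Of 12 other nuclear-encoded cytochrome oxidase subunits, 8 were higher in replicate 1 and the 2 past 2-fold were Cox8b and Cox7a1 (median 0.07). Cox6b1 (773 and 777 TPM) and Cox4i1 were the highest of these. In all 4 lists no gene with a mean of at least 1 TPM was over 2-fold higher in replicate 2. With a share of 1.12% over all genes tested, nothing is read from that absence.

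RNA of muscle fibre markers also differed between the pools. Over all genes tested, 54.8% were higher in replicate 1 and 2.55% by more than 2-fold. Of 12 skeletal muscle fibre markers, 12 were higher in replicate 1 and 11 by more than 2-fold, with a median log2 difference of 1.56 (2.94-fold; range 0.99 to 2.01) beside 0.02 over all genes. Their summed TPM was 9722 in replicate 1 and 3122 in replicate 2, and Acta1, skeletal alpha-actin, was the highest of them at 2862 and 779 TPM. All 5 muscle genes therefore moved the way the fibre markers did. Pgam2, Cox6a2, Eno3 and Pygm lay 0.14, 0.24, 0.30 and 0.40 above the marker median on the log2 scale, within the range of the 12 markers. Ckm lay 1.03 above it, and none of the 12 markers had as large a difference. The part of fibre content in the members' differences was not tested.

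Acta1, the most abundant marker, had the second largest difference of the 12, and set against it within each library, 4 of the muscle genes had similar proportions in both pools. Eno3 stood at 7.43% and 7.53% of the TPM of Acta1, Cox6a2 at 4.06% and 4.28%, Pygm at 2.62% and 2.47%, and Pgam2 at 6.41% and 7.26%. Ckm stood at 18.5% and 11.3%. These proportions depend on the marker taken. With each of the 12 markers in turn as the reference, a comparison added after seeing the data, the log2 proportion in replicate 1 over replicate 2 ran from −0.05 to 0.97 for Pygm, −0.15 to 0.86 for Eno3, −0.21 to 0.81 for Cox6a2 and −0.31 to 0.70 for Pgam2. For Ckm it ran from 0.58 to 1.59 and so was above 0 against each marker. Of the general genes, Pgam1 stood at 18.8% and 67.5% of Acta1.

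Markers of other tissues differed in either direction, and their part in the results was not tested. No listed marker was at 0 in both libraries. Heart markers summed to 11.8 and 8.15 TPM over 5 genes (Tnni3 highest, 5.06 and 4.67 TPM). The 2 heart markers with a mean of at least 1 TPM, Tnni3 and Myl7, differed by log2 0.11 and 0.75. Myh6, named after its values were seen, had 1.31 and 0.16 TPM on 126 and 26.5 counts, a log2 difference of 2.44. Its mean of 0.735 TPM is below 1 TPM, and at so low a level the difference depends on the 0.1 TPM added. Chondrocyte markers summed to 777 and 824 TPM over 3 genes (Col2a1, 689 and 731 TPM), keratinocyte markers to 2801 and 2646 TPM over 3 (Krt14), and erythroid markers to 12114 and 12078 TPM over 3 (Hbb-bs). Neuron markers summed to 21.3 and 26.0 TPM over 5 (Stmn2), and smooth muscle markers to 27.4 and 21.1 TPM over 3 (Tagln). Beside Ckb, which osteoclasts are known to express strongly, the 5 osteoclast markers summed to 211 and 126 TPM (Ctsk, 127 and 81.2 TPM), with a median log2 difference of 0.64 over the 3 with a mean of at least 1 TPM. The largest was that of Mmp9, named after its values were seen (44.5 and 18.4 TPM, log2 1.27). Beside Pygl, the 4 liver markers summed to 9.23 and 44.5 TPM (Afp, 3.41 and 21.5 TPM). The 3 with a mean of at least 1 TPM were each over 2-fold higher in replicate 2, beside 1.12% of all genes tested. The Ckb difference (log2 0.51) had the sign of the osteoclast median, but also that of the smooth muscle (0.49) and fibre (1.56) medians. It lay inside the SD of 0.57 over all genes tested. Pygl was level while liver markers differed. The source of the RNA of either gene was not tested.

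**Figure D4:**
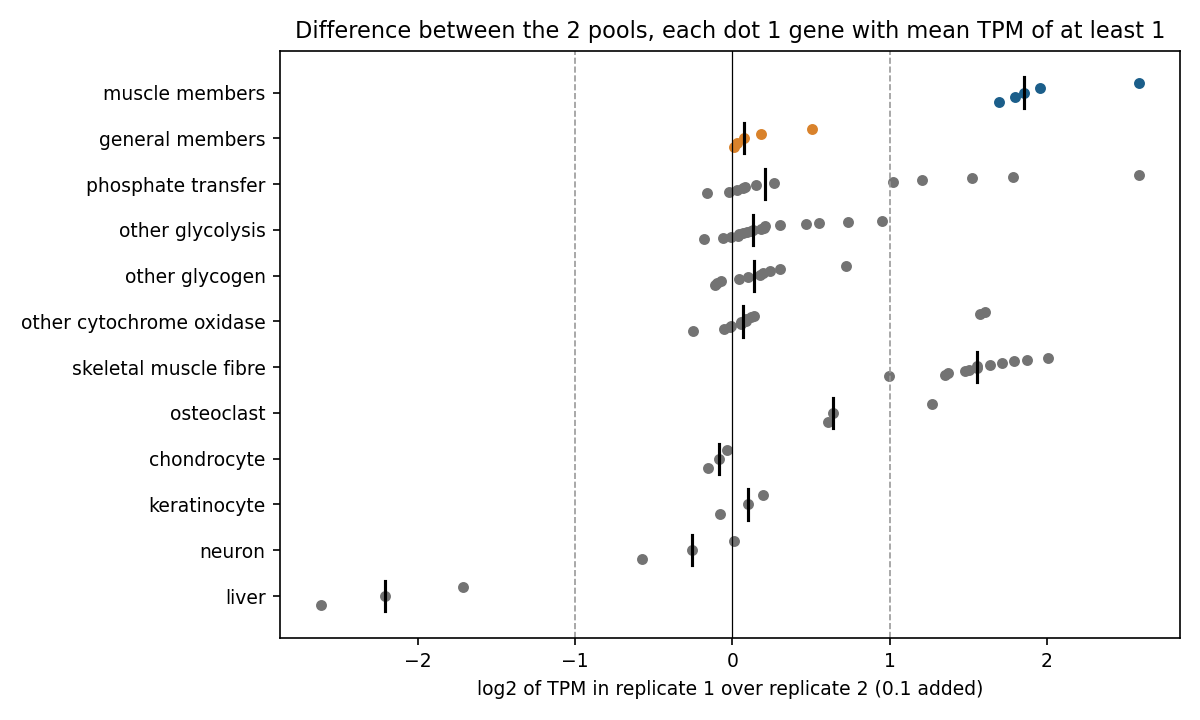
Log2 of TPM in replicate 1 over replicate 2 (0.1 added), 1 dot for each gene with a mean of at least 1 TPM, with a black bar at each list's median and dashed lines at a 2-fold difference. The 5 muscle genes (blue, 1.70 to 2.59) lie with the fibre markers (0.99 to 2.01) or beyond them, the 5 general genes (orange) lie from 0.01 to 0.51, and the liver markers lie below −1.

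For each muscle gene, the 3 other genes with a mean of at least 10 TPM whose log2 difference between the 2 libraries was nearest were taken from 9441 candidates, which with 2 libraries is a likeness in 1 number only. Nearest to Ckm were Car3, a carbonic anhydrase of slow muscle (196 and 31.9 TPM, gap 0.03), the myogenic factor Myf6 (gap 0.27) and the slow myosin light chain Myl3 (gap 0.36). Nearest to Eno3 were the sarcoplasmic calcium pump Atp2a1 (247 and 68.4 TPM, gap 0.01), Jsrp1 (gap 0.01) and Acta1 (gap 0.02). The gaps were thus wider for Ckm than for Eno3. Pgam2 was nearest to Myot, Asb2 and Cav3, Cox6a2 to the fast troponin T gene Tnnt3, Atp1b4 and Ampd1, and Pygm to Cavin4, the fast troponin I gene Tnni2 and Apobec2. The gaps for these 3 genes were between 0.01 and 0.05.

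Transcript tables gave 1 transcript each for Ckm, Ckb, Pgam2, Pgam1 and Cox6a2. Eno3 had 8, of which Eno3-201 held 66.1% and 72.5% of the gene's TPM and Eno3-202 held 28.8% and 22.7%. Eno1 had 11, of which Eno1-202 held 87.5% and 91.7%, and Eno1-205, at 773 bases a short model, held 8.65% and 3.73%. Eno1-205 thus had a share over 2-fold larger in replicate 1 (130 and 49.4 TPM), while in both genes the leading transcript was the same in both pools. In Pygm, Pygm-201 held 79.8% and 79.4%, and the rest was Pygm-203, a retained-intron model of 532 bases at 15.1 and 3.97 TPM on 146 and 46.9 counts. The coding transcript of Pygm alone stood at 59.9 and 15.3 TPM, which keeps it above Pygl in replicate 1 and below it in replicate 2. Cox6a1-201 held 99.2% and 99.0%, and Pygl-201 99.1% and 96.6%.

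Reads that match more than one gene could move between rows. Coding sequences within a pair were 75.9% identical for Ckm and Ckb over 1143 aligned bases, 76.7% for Eno3 and Eno1 over 1302, 74.7% for Pgam2 and Pgam1 over 759, 60.7% for Cox6a2 and Cox6a1 over 285, and 74.7% for Pygm and Pygl over 2526, which leaves the paralogues apart from each other. Near-identical copies were found for general genes only. Pgam1-ps2, a processed pseudogene identical to the Pgam1 transcript over 765 bases, was given 56.8 and 71.7 TPM. Copies of Pgam1 together had 10.6% and 13.7% of its TPM, copies of Eno1 (Eno1b and Gm4735) 2.86% and 2.62%, and the copy of Ckb (Gm12892) 0.238% and 0.160%. The levels of Pgam1 and Eno1 are uncertain by about these shares. The estimated counts of a gene and its copies added up to whole numbers within 0.02, for instance 21582 and 26144 for Pgam1 with its 3 copies, so the split reads were shared within each such group.

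The same held for Ckm and A930016O22Rik, an antisense gene that overlaps it, with 15549 and 3164 counts together, of which the antisense row had 20.4 and 5.96. Neither row was whole alone, so some reads were shared between these genes on opposite strands. Reads of an antisense pair cannot be told apart unless counting used strand, and the strand setting is not given in the sources used here. The 0.82 and 0.20 TPM of A930016O22Rik are small beside Ckm. The genes overlapping Cox6a2 (Itgad) and Pygl (F730035M05Rik) had 0 counts in both libraries. Adding the copies to the general genes left the order of every pair in each library as described.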

How the data were processed

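The authors deposited, for each of the 2 libraries, a gene table and a transcript table. Per the file headers these hold expected counts (reads shared among matching genes, so not always whole), TPM, posterior mean TPM, FPKM and, for transcripts, each one's percent of its gene. The deposited bounds of the TPM interval carry no stated level. Per the deposited sample records the assembly was mm10 with annotation GENCODE M4. The aligner, the counter, their versions and the strand setting were not given in the sources used here. Each gene table had 43346 mouse gene rows, 97 spike-in rows and 26248 rows with numeric identifiers, and the last were left out of all gene counts. Symbols, coordinates and coding sequences came from GENCODE M21 on GRCm38, matched without version for 42462 rows, with 884 unmatched.

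Levels are TPM. Ratios and differences are log2 with 0.1 TPM added, and 2-fold was the call, over genes with a mean of at least 1 TPM. Named are the 10 genes, the further pairs, the 2 highest and the 2 most different genes of each pathway list with a mean of at least 1 TPM, the highest of each marker list, and the 3 genes nearest to each muscle gene. Some results under this rule are not reported here. Members and lists were chosen with earlier results of these data known. Replicates are separate pools, so their SD (n = 2) covers pool and library. Deposited intervals and counts describe counting error alone: reads copied by amplification do not each stand for a molecule, and little input (10 ng) adds noise. Alternatives were other pseudocounts, posterior mean TPM, FPKM, counts without length, copies added, other filters, and expected counts scaled by TMM (edgeR 4.0.16), median of ratios (DESeq2 1.42.0, counts rounded to whole numbers) or spike-ins. Copies were sought with BLAST 2.17.0 on the same strand (90% identity over 200 bases) and pairs aligned with MAFFT 7.526. Python 3.11.15, numpy 2.4.6, pandas 2.3.3, matplotlib 3.10.9 and R 4.3.3 were used. Only the count of genes over 2-fold apart was tried on simulated data, with counting noise and no variation between pools.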

Additional observations from a re-analysis of the deposited data

How the results depend on the processing

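Under every scaling and pseudocount tried, all 5 muscle genes stayed over 2-fold higher in replicate 1 and no general gene did. The filters on mean TPM act only on the shares over all genes, so they could not change this. Because the genes were chosen with this difference known, its stability is only a description. The Pgam1 log2 difference turned to −0.0228 with spike-in scaling, and that of Pygl to −0.0150 when centred on the median gene and −0.00973 with spike-in scaling; both are near 0. Leaving out 1 library left the mean log2 ratio at −0.27 to 1.81 for Ckm over Ckb and −0.63 to 1.32 for Pygm over Pygl, with the lower value without replicate 1, so these 2 orders rest on the pool. Without division by length, Pgam2 over Pgam1 was −3.61, since the Pgam1 transcript (1831 bases) is longer than that of Pgam2 (840 bases). The share of genes over 2-fold higher in replicate 2, 1.12%, was 0.674% with a pseudocount of 1, 0.578% with TMM, 0.572% with median of ratios, 0.610% with spike-ins, 0.116% at a mean of at least 10 TPM and 2.93% with no filter, and that in replicate 1, 2.55%, was 1.23% at 10 TPM. As counts, 397 genes in favour of replicate 1 became 117 at 10 TPM and 1376 with no filter, and 175 in favour of replicate 2 became 11 and 1272. The other 53 values that answer a comparison and 77 others moved by less than the spread (SD between pools, or 0.57 for log2 differences) or, for counts, by less than 1.5-fold; a mean of 2 libraries with 1 left out cannot move by more than 1 SD. Pygm over Pygl was 0.12 without division by length. A difference between pools needs both libraries, so none could be left out there. Copies by symbol changed nothing for creatine kinase, Cox6a and phosphorylase, which have no such named copy in the table, and copies by BLAST were chosen after seeing the data. No paired analysis was possible because there is 1 group. Depth limits Cox7a1, Phkg1 and Fbp1, on 55 or fewer counts.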
